A study of Mus musculus with 12 samples.

Results

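Slc15a2, Slc15a3 and Slc15a4 encode membrane transporters that move short peptides together with protons. They were selected by symbol in a table of CD8 T cell transcripts, with the difference of Slc15a2 between scurfy and wild-type cells already known, so the values of that contrast are given as a description without a test. Of the 3 genes named, 2 had a row among the 11581 genes of the table, Slc15a2 (ENSMUSG00000022899, chromosome 16 in GENCODE M21) and Slc15a4 (ENSMUSG00000029416, chromosome 5). Slc15a3 (ENSMUSG00000024737, chromosome 19) had no row. The lowest mean of any gene in the table is 7.10 normalized counts, and the level of Slc15a3 was not analysed here. The same holds for the other family members Slc15a1 and Slc15a5.

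The cells carried OT-1, a transgenic T cell receptor that recognises the SIINFEKL peptide of ovalbumin, in both genotypes. They differed in Foxp3, which was either the wild-type gene or the scurfy allele, a loss-of-function mutation of this master regulator of regulatory T cells. Hosts were CD45.2+ C57BL/6 J mice reconstituted with a mixture of CD45.1+/2+ OT-1 marrow and CD45.2+ marrow, and fresh CD8 T cells were purified 2 months later. The comparison is between 3 unstimulated scurfy and 3 unstimulated wild-type libraries. The labels do not say whether the CD45.2+ share of the chimera was removed, nor whether libraries came from separate mice, so the spread between libraries may be technical. The 6 libraries given peptide for 6 h were not analysed here.

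SLC15 proteins use the proton gradient across a membrane to carry di- and tripeptides and related compounds. Slc15a2 encodes PEPT2, the high-affinity transporter of the cell surface, known from the kidney tubule and the choroid plexus, which also carries bacterial peptides and beta-lactam antibiotics into cells. Slc15a4 and Slc15a3 encode PHT1 and PHT2, which sit in endosomes and lysosomes and release histidine and peptides into the cytosol. In B cells and plasmacytoid dendritic cells Slc15a4 is required for signalling by endosomal Toll-like receptors, in part through an adaptor (TASL) that engages Irf5.

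The stretches directly before the transcript starts are shown because both transporter genes were measured in the same libraries at clearly different ratios between the genotypes. RefSeq on GRCm38.p6 holds the sequence for Slc15a2 (chr16:36784963-36785212) and Slc15a4 (chr5:127617393-127617642), both on the minus strand. Each line gives the 250 bases before the start, 5′ to 3′, with motif matches in capitals.
Slc15a2: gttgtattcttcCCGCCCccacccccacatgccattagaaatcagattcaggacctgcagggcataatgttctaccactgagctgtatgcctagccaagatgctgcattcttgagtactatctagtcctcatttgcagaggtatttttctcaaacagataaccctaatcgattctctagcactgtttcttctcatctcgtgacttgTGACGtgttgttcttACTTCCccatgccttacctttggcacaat
Slc15a4: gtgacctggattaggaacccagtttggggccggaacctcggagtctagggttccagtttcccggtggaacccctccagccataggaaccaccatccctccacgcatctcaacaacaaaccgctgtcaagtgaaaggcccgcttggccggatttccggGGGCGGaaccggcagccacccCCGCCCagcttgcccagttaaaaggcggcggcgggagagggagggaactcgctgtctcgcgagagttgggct

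The sequences differ in base composition. The Slc15a2 stretch is 45.2% G and C with 4 CpG dinucleotides, and the Slc15a4 stretch is 62.8% G and C with 17. Over 32851 mouse promoters of the same length the medians are 52.4% and 6. Of 8 motifs searched on both strands, the GC box (GGGCGG, in 32.7% of all promoters) was found once before Slc15a2 and 2 times before Slc15a4. An Ets core (GGAAGT, in 19.7%) lay at position -29 from the Slc15a2 start and a cyclic AMP response motif (TGACG, in 17.8%) at position -44, with neither before Slc15a4. The forkhead core (TGTTTAC, in 3.17%), the Runx core (TGTGGT, in 14.05%), the TATA box (TATAAA, in 12.4%), the CCAAT box (CCAAT, in 33.8%) and the E-box (CACGTG, in 6.02%) were in neither window. No match overlapped another. The Slc15a2 start coincides with a transcript start in GENCODE M21, and that of Slc15a4 lies 11 bases from one. GENCODE lists 14 transcript starts for Slc15a2 and 10 for Slc15a4, and the start in use in these cells was not measured.

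Slc15a2 transcripts were far less abundant in scurfy than in wild-type CD8 T cells. The unit is the normalized count, a read count divided by a scaling factor for each library. Slc15a2 stood at 64.2, 85.4 and 28.4 normalized counts in the scurfy libraries, by replicate number, against 564, 522 and 565 in those of wild type. All 3 scurfy values lay below all 3 wild-type values, and the lowest wild-type library held 6.10 times the highest scurfy library. The means were 59.3 ± 28.8 and 550 ± 24.7 (SD, n = 3 each), a 9.27-fold difference. On the log2(normalized count + 1) scale the difference was -3.33 (SE 0.31). In the authors' deposited table the log2 fold change of Slc15a2 is -3.21. In bulk samples fewer cells containing the transcript and less of it per cell cannot be told apart.

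The reads behind these values set their precision. Slc15a2 had 53, 70 and 24 reads in the scurfy libraries, and 424, 1079 and 673 in those of wild type. The exact 95% Poisson intervals, which cover counting error only, ran from 48.1 to 83.9 normalized counts in scurfy library 1, from 66.6 to 108 in library 2 and from 18.2 to 42.2 in library 3. The interval of scurfy library 3 therefore did not meet those of the other two. Slc15a2 varied much more among scurfy than among wild-type libraries, with a coefficient of variation of 48.6% against 4.49%, where counting alone gives about 14.3% and 3.71%. Among 2410 genes within 2-fold of its scurfy level, 90.5% had a smaller coefficient of variation in the scurfy libraries. Among 3883 genes within 2-fold of its wild-type level, 11.8% had a smaller one in the wild-type libraries.

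**Figure D1:**
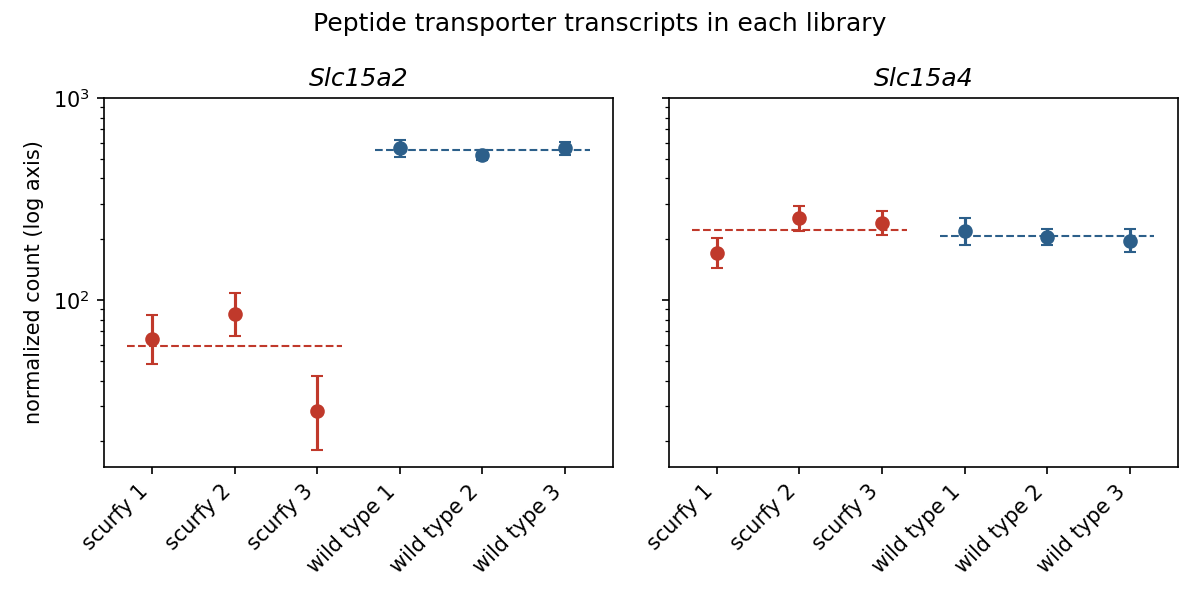
Normalized count (log axis) of Slc15a2 and Slc15a4 in each library, scurfy in red and wild type in blue; bars are exact 95% Poisson intervals of the reads and dashed lines are group means. The scurfy libraries lie between 28.4 and 85.4 for Slc15a2, far below the wild-type libraries at 522 to 565, whereas the groups overlap for Slc15a4.

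Slc15a4, the endolysosomal member, had overlapping levels in the genotypes. It stood at 172, 254 and 241 normalized counts in the scurfy libraries, by replicate number, against 219, 205 and 197 in those of wild type. The groups overlapped, because scurfy library 1 was the lowest of all 6 libraries and scurfy libraries 2 and 3 were the highest. The means were 222 ± 44.1 in scurfy and 207 ± 11.2 in wild type (SD, n = 3 each), a log2 difference of 0.08 (SE 0.20), which is smaller than the spread between the scurfy libraries (SD 0.30 on the log2 scale). Its sign was negative in 2 of 16 alternative settings, at -0.05 when scaled by library size alone and at -0.02 without scurfy library 2. Reads numbered 142 to 208 in the scurfy libraries and 165 to 425 in the wild-type libraries. A partly overlapping gene of unsettled status on the opposite strand (Gm43474) has no row. The strand setting of the counting is unknown here, and reads of the pair could not be told apart.

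The pair can also be compared within a library, which needs no scaling between libraries. Of the reads of both genes together, Slc15a2 held 27.2% (exact 95% binomial interval 21.1 to 34.0) in scurfy library 1, 25.2% (20.2 to 30.7) in scurfy library 2 and 10.5% (6.86 to 15.3) in scurfy library 3. In the wild-type libraries, by replicate number, it held 72.0% (68.2 to 75.6), 71.7% (69.4 to 74.0) and 74.1% (71.1 to 76.9). All scurfy shares lay below all wild-type shares. The intervals cover counting error only, and the shares rest on the Slc15a2 values for which the gene was chosen. Per kilobase of annotated exon, Slc15a2 was at 74.7 ± 3.35 normalized counts in wild type against 39.0 ± 2.10 for Slc15a4, and in scurfy at 8.06 ± 3.92 against 41.9 ± 8.30. By this level per length the order of the transporters is reversed between the genotypes. Since the libraries were primed from the poly(A) tail, reads need not grow with transcript length, so the order within a genotype is less certain than the difference between genotypes.

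**Figure D2:**
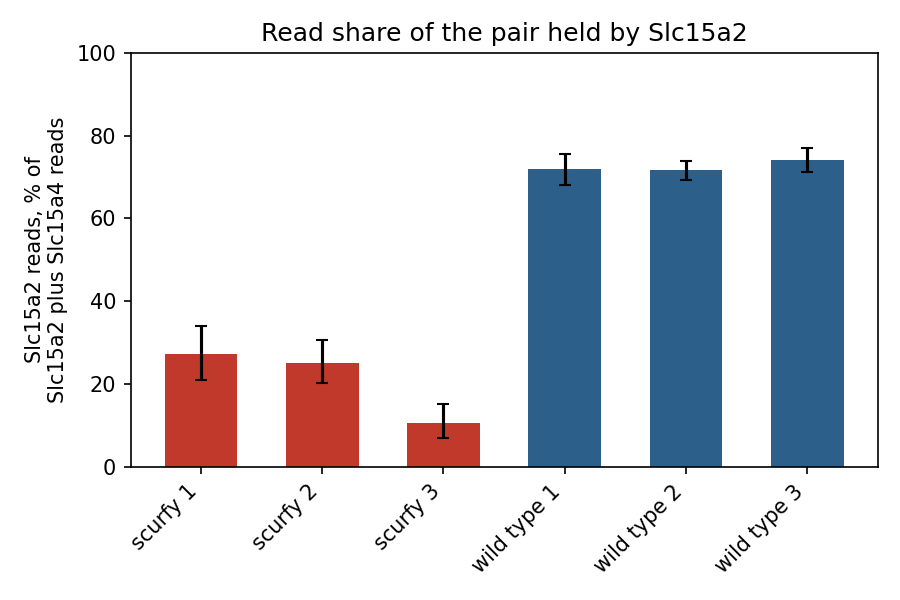
Share of Slc15a2 in the summed reads of Slc15a2 and Slc15a4 in each library, in percent, with exact 95% binomial intervals. Scurfy libraries (red) range from 10.5% to 27.2% and wild-type libraries (blue) from 71.7% to 74.1%.

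Slc15a2 stood apart from nearly all other genes of the table in the size of its difference. In wild-type cells it was expressed above 70.8% of the genes, and in scurfy cells above 23.5% (normalized count, not per length), whereas Slc15a4 was above 45.5% and 47.7%. Ordered by log2 fold change on the log2(normalized count + 1) scale, Slc15a2 was the sixth lowest of 11581 genes. The 5 genes below it, H2-Aa, Capn11, B630019K06Rik, H2-Ab1 and Gm10451, had wild-type means of 16.5 to 71.7 normalized counts, far below the 550 of Slc15a2. The next gene above it was Rmdn2 at -2.91, with a wild-type mean of 28.9. Slc15a4, at rank 6725, lay between Fgfr1op and Gtf2f1. Groups without overlap were common, at 27.1% of the table, with 13.7% lower in every scurfy library. A wide gap between groups was not. Of 10593 genes averaging 20 normalized counts or more, 21 had groups separated by at least 2-fold, and Slc15a2 was the only one separated by 6.10-fold or more. The 6.10-fold limit is the gap of Slc15a2 itself, which was chosen for this contrast, so its place is a description. The next widest gaps were those of the MHC class II gene H2-Aa (3.63-fold, lower in scurfy) and of Mtus2 (3.16-fold, higher in scurfy). H2-Aa, with a scurfy mean of 6.82, met the minimum of 20 only through the wild-type libraries.

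**Figure D3:**
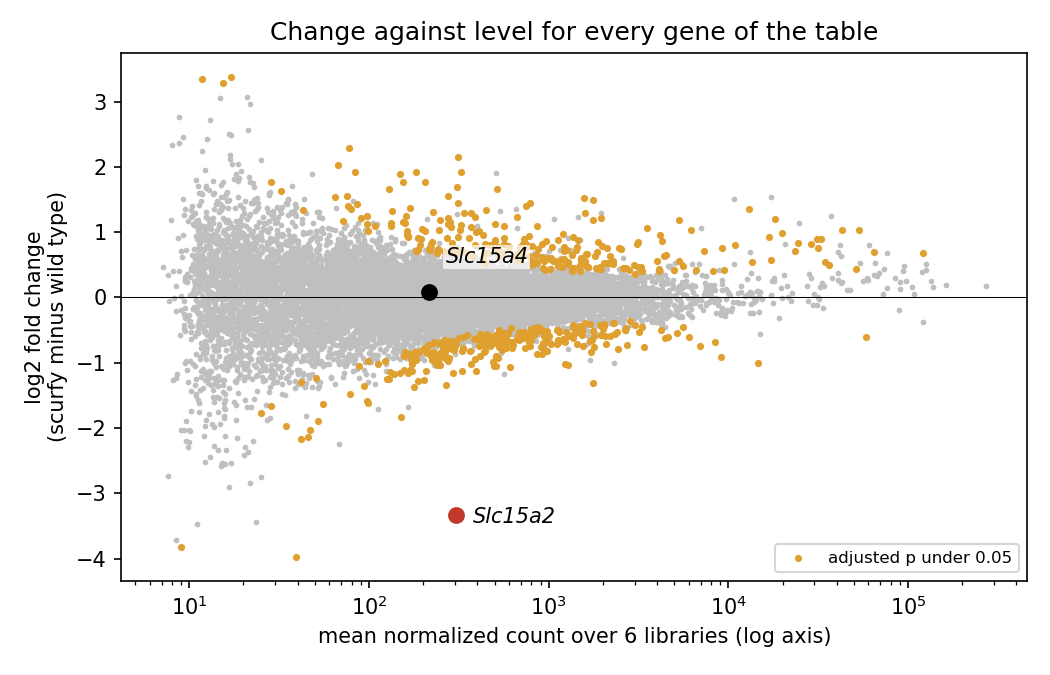
Log2 fold change (scurfy minus wild type) against mean normalized count (log axis) for all 11581 genes, with genes past an adjusted p of 0.05 in orange. Slc15a2 lies at -3.33, below all genes of comparable level, and Slc15a4 at 0.08 in the centre of the cloud.

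Other scalings, fits and left-out libraries kept the difference of Slc15a2. Over 10 other settings its log2 fold change ran from -3.46 on library size alone to -3.21 in DESeq2. Among these, the replicate block and the filter on mean level cannot change the value of a gene. Leaving out libraries moved Slc15a2 more, from -3.65 without scurfy library 2 to -2.88 without scurfy library 3, the library with the lowest value. Slc15a4 ran from -0.05 to 0.12 over the settings and from -0.02 to 0.26 over the left-out libraries, the highest value being without scurfy library 1. Slc15a2 has 7361 bases of annotated exon, and fold changes of genes can depend on length. For 2208 genes of similar annotated length the median change was -0.07 on the log2 scale. With the length trend removed, a fit in which limma called 2.63% of genes, Slc15a2 was at -3.25.

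**Figure D4:**
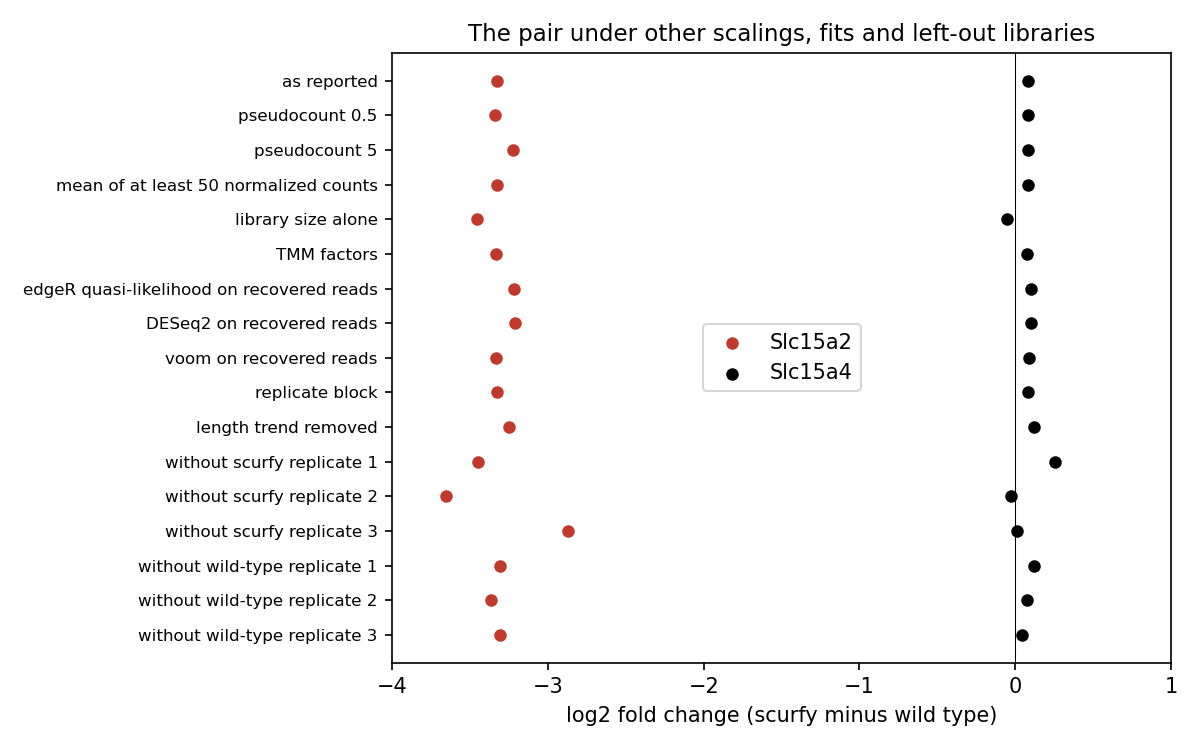
Log2 fold change (scurfy minus wild type) of Slc15a2 (red) and Slc15a4 (black) as reported and under 16 alternatives. Slc15a2 stays between -3.65 and -2.88 and Slc15a4 between -0.05 and 0.26. The replicate block and the filter on mean level could not move either gene.

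The libraries held 8852518 to 23149523 reads each, and wild-type library 2 was the deepest. Scurfy library 3, lowest in Slc15a2, also lay farthest from the other libraries on the first principal component, at -31.4 against -9.10 and -12.0 for the other scurfy libraries and 12.6 to 24.4 for the wild-type libraries. Foxp3 has no row and could not serve as a check of the genotypes. The cells carried the markers of CD8 T cells, with Cd8a at 6873 to 8310 and Cd8b1 at 21344 to 21911 normalized counts over the 6 libraries. Across the table limma called 4.47% of genes at an adjusted p of 0.05, 2.12% higher and 2.35% lower in scurfy. Of 14 CD8 T cell identity genes 2 rose in limma, Cd3d (0.76, adjusted p = 0.0055) and Cd2 (0.43, adjusted p = 0.0376). With a replicate block limma called 1 of the 14. EdgeR and voom each called 2 and DESeq2 called 3. Cd3g was at 0.46 (limma adjusted p = 0.0648, DESeq2 adjusted p = 0.0193). An unadjusted limma p under 0.05 was seen for 5, and groups did not overlap for 5, against 27.1% of the whole table. The call of Cd2 ended with any 1 of the 6 libraries left out, with adjusted p up to 0.129, on library size alone (0.0991) and with the length trend removed (0.104).

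Markers of other cells were mostly without a row, and some moved with the genotype. Of 13 B cell markers 7 had a row, and all 7 had lower means on the log2 scale in scurfy. The median log2 fold change of the 7 was -0.99, which is the value of Cd74. The median over all genes was 0.01. In limma 1 of them fell, the MHC class II gene H2-Aa, which was at 15.7, 0 and 4.73 normalized counts in the scurfy libraries, by replicate number, against 57.2, 84.1 and 73.9 in those of wild type (log2 fold change -3.97, adjusted p = 0.0164). Its call ended without wild-type library 2 or 3, with adjusted p up to 0.0706. H2-Ab1 was at 0 in scurfy libraries 2 and 3 and had a log2 fold change of -3.48 (adjusted p = 0.0638). H2-Eb1, also of MHC class II, was at 4.39 ± 2.96 and 24.5 ± 11.4 normalized counts, and Cd74, the invariant chain, at 16.4 ± 2.22 and 33.6 ± 3.74 (SD, n = 3 each, scurfy first). H2-Aa, H2-Ab1, H2-Eb1 and Cd74 had the largest falls of the 7, and the cells that held their transcripts are not known. The other markers changed less and did not pass in limma. These were Cd79b (-0.25, adjusted p = 0.576), Ighd (-0.17, adjusted p = 0.703) and Ighm (-0.08, adjusted p = 0.713). The groups did not overlap for 4 of the 7, against 27.1% of the whole table. An unadjusted limma p under 0.05 was seen for 4, a count with no share over all genes here. EdgeR and voom each called 2 of the 7, and DESeq2 called 1 but gave H2-Ab1, H2-Eb1 and Cd74 no adjusted p. Over the table edgeR called 561 genes, voom 539 and DESeq2 891, or 8.9% of the 10008 genes with an adjusted p. The summed level of the 7 markers, most of it the immunoglobulin gene Ighm, was 9895 to 11352 in scurfy and 10971 to 11753 in wild type. This overlap is set by Ighm. Those without a row include Cd79a, Ms4a1, Pax5, Cd22 and Blk. The lowest H2-Aa value was in scurfy library 2, where Slc15a2 was highest among the scurfy libraries, and H2-Aa was higher in wild-type libraries 2 and 3 than in library 1. With 3 libraries per group and H2-Aa at 15.7 normalized counts or less in scurfy, these orders cannot bear on B cell content. The part of B cells in the Slc15a2 difference was not tested.

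Of 13 myeloid and dendritic cell markers only Cst3 had a row, which rose from 974 ± 155 to 1454 ± 60.7 normalized counts (SD, n = 3 each, limma adjusted p = 0.0202). Its call ended without scurfy library 2 or 3 or wild-type library 2, with adjusted p up to 0.0815, on library size alone and with the length trend removed (0.0843). Of 7 natural killer cell markers only Klrd1 had a row and it fell by 0.65 on the log2 scale (adjusted p = 0.0339). That call ended without scurfy library 3 or any 1 of the wild-type libraries, with adjusted p up to 0.124. It also ended with a replicate block. Since the other markers of these lists have no row, the cells that held the Cst3 and Klrd1 transcripts are not known. The summed level of 4 plasmacytoid dendritic cell markers was 1829 to 2048 in scurfy and 1670 to 1794 in wild type, mostly from Bst2 and Ccr9, which T cells also express, and limma called none of the 4. Their unadjusted p was under 0.05 for 0 of the 4, and edgeR, voom and DESeq2 called 0. DESeq2 gave Irf8 and Tcf4 no adjusted p. Of 5 CD4 T cell markers only Cxcr5 had a row, at 55.7 to 78.1 in scurfy and 62.1 to 90.4 in wild type.

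The genes whose pattern over the 6 libraries lay nearest to that of Slc15a2 were Klhl7, Zfp189, Zfp943, Jade3 and Ythdf2. Likeness was measured as the root mean square difference of log2(normalized count + 1) over the 6 libraries, after the mean of each gene was taken out, for genes averaging 20 normalized counts or more. It ran from 0.77 to 0.81 log2 units for these 5, so even the nearest pattern was far from that of Slc15a2. Klhl7, which encodes an adaptor of a ubiquitin ligase, was at 8.27 to 29.1 normalized counts in scurfy cells and 51.2 to 109 in wild type. Ythdf2, a reader of methylated RNA, was at 24.8 to 104 in scurfy and 183 to 288 in wild type. The log2 fold changes of the 5 ran from -2.17 to -1.83, and their direction was fixed by the choice. Klhl7, Zfp189 and Jade3 had scurfy means of 17.3, 16.1 and 19.4 normalized counts, so they met the minimum only through the wild-type libraries.

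For Slc15a4 the nearest genes were Angel2, Ccr9, Atmin, Net1 and Mios, at 0.04 to 0.07 log2 units. Its pattern was a common one, since 3218 genes lay within 0.25 log2 units of it, whereas none lay that near to Slc15a2. Ccr9, a chemokine receptor of gut-homing lymphocytes, was at 471 to 619 normalized counts in scurfy cells and 499 to 598 in wild type. Mios, a subunit of the GATOR2 complex that regulates mTORC1, was at 153 to 206 in scurfy and 169 to 197 in wild type. In both genes scurfy library 1 was the lowest library, as in Slc15a4, a likeness that follows from how the genes were chosen.

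Genes next to the transporters on the chromosomes are given as a description, since with 4.47% of all genes called a count of 0 among so few is near the background. The 3 protein-coding genes with a row on each side of Slc15a2, chosen after values were seen, were Ccdc58, Cd86, Ildr1, Iqcb1, Golgb1 and Hcls1. Hcls1, a cytoskeletal adaptor of blood cells, was at 1688 ± 42.2 normalized counts in scurfy cells and 1643 ± 113 in wild type, and Golgb1, a Golgi protein gene, at 1213 ± 148 and 998 ± 163 (SD, n = 3 each). Ildr1, the one with the lowest log2 fold change (-1.45, SE 0.65), was a low gene at 8.90 ± 7.20 and 21.8 ± 1.59. The costimulatory ligand gene Cd86 was at 21.4 ± 17.5 and 16.4 ± 9.71. None of the 6 passed limma's threshold, with adjusted p from 0.214 to 0.980. None of the 6 neighbours of Slc15a4 (adjusted p from 0.499 to 0.971) or of Slc15a3 passed it either. Those of Slc15a3 include Cd5 and Cd6, which encode surface receptors of T cells and were at 2422 ± 161 and 2986 ± 47.5 in scurfy and at 2163 ± 134 and 2788 ± 249 in wild type (adjusted p = 0.390 and 0.603).

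The limma counts for genes that act around peptide transport stand against the 4.47% of all genes that limma called. DESeq2 called 8.9% of the 10008 genes with an adjusted p, while edgeR called 561 and voom 539 of all genes. Counts at an unadjusted limma p under 0.05 have no share over all genes here. Of 19 genes of the vacuolar proton pump, which sets up the proton gradient that Slc15a3 and Slc15a4 use, 16 had a row. None of the 16 passed, 3 having an unadjusted p under 0.05, and edgeR, voom and DESeq2 each called 1. The member with the smallest p was Atp6v1d, a subunit of the pump's stalk, at 2847 ± 147 normalized counts in scurfy cells and 3773 ± 443 in wild type (adjusted p = 0.0510). The median log2 fold change of the 16 was 0.04. Of 15 proton and pH exchangers and their regulators 10 had a row and none passed in limma, edgeR, voom or DESeq2, with 2 at an unadjusted p under 0.05 and a median of 0.16. Among them, Slc9a5 was given no adjusted p by DESeq2. Slc9a3r1, a scaffold that anchors a sodium-proton exchanger at the membrane, was closest (0.26, adjusted p = 0.165).

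Of 17 lysosomal transporters of amino acids and other nutrients 15 had a row and none passed in limma, edgeR, voom or DESeq2, with 1 at an unadjusted p under 0.05. This was Slc36a4, a low gene at 10.0 ± 8.60 normalized counts in scurfy cells and 25.6 ± 4.12 in wild type (limma adjusted p = 0.183). DESeq2 gave Slc36a4 no adjusted p. The amino acid transporter Slc38a9, which reports lysosomal arginine to mTORC1, was at 575 to 664 in scurfy and 560 to 613 in wild type, and the cystine transporter Ctns at 155 to 182 and 145 to 188. The median of the list was 0.02.

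Of 17 plasma membrane amino acid transporters 12 had a row, of which Slc38a1 fell and 11 did not pass in limma, the median being -0.20. An unadjusted limma p under 0.05 was seen for 4, and groups did not overlap for 6, against 27.1% of the whole table. EdgeR and voom each called 1 and DESeq2 called 2. Slc6a6 was at -0.46 (limma adjusted p = 0.0751, DESeq2 adjusted p = 0.0395). DESeq2 gave Slc43a1 and Slc3a1 no adjusted p. Slc38a1, a sodium-coupled glutamine transporter, was at 672, 581 and 582 normalized counts in the scurfy libraries, by replicate number, against 782, 952 and 989 in those of wild type. Its groups did not overlap (log2 fold change -0.56, SE 0.13, limma adjusted p = 0.0279). The call ended without scurfy library 2 or 3 or wild-type library 2 or 3, with adjusted p up to 0.106, and with the length trend removed (0.110). Its relative Slc38a2 was at -0.31 and did not pass (adjusted p = 0.104), nor did the leucine transporter genes Slc7a5 (0.43, SE 0.29) and Slc3a2 (-0.09, SE 0.13).

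Of 30 peptidases that cut short peptides or trim the ends of longer ones, 27 had a row, of which Prcp fell and 26 did not pass, with a median of 0.07. Prcp, a lysosomal carboxypeptidase that removes a residue next to proline, was at 111, 118 and 111 normalized counts in the scurfy libraries, by replicate number, against 207, 214 and 190 in those of wild type. Its groups did not overlap (log2 fold change -0.83, SE 0.20, limma adjusted p = 0.0312). Yet the call ended with any 1 of the 6 libraries left out, with adjusted p up to 0.110. It also ended with the length trend removed (0.0517) and with a replicate block. DESeq2 called 2 of the list, edgeR and voom called 1 each, and 4 had an unadjusted limma p under 0.05. The largest difference was in the other direction, in the lysosomal dipeptidyl peptidase gene Dpp7, at 98.3 ± 31.5 normalized counts against 46.8 ± 16.1 in the wild-type libraries (1.07 on the log2 scale, limma adjusted p = 0.0933, DESeq2 adjusted p = 0.0499). The cytosolic dipeptidases Cndp2 (0.44, SE 0.17) and Pepd (-0.12, SE 0.13) did not pass.

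Of 22 genes of innate sensing that depend on endolysosomal transport or act downstream of the sensors, 15 had a row. The endosomal receptors Tlr3, Tlr7, Tlr8 and Tlr9, the peptidoglycan sensor Nod2 and the factor Irf5 had no row, and neither did the adaptor gene 5430427O19Rik (TASL). None of the 15 passed in limma, edgeR or voom, 1 had an unadjusted p under 0.05, and DESeq2 called 1. Chuk, a kinase of the NF-kB pathway, had the smallest p (-0.58, adjusted p = 0.0720). Nod1, which senses bacterial peptides, was at 365 to 475 normalized counts in scurfy cells and 288 to 425 in wild type, and its kinase partner Ripk2 at 114 to 219 and 134 to 210.

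Of 34 genes through which lysosomal nutrients act on mTORC1, 31 had a row, of which Lamtor1 fell and 30 did not pass in limma, with a median of 0.01. An unadjusted limma p under 0.05 was seen for 5, and groups did not overlap for 7, against 27.1% of the whole table. EdgeR and voom each called 1 and DESeq2 called 2. Tsc1 was at -0.53 (limma adjusted p = 0.0749, DESeq2 adjusted p = 0.0445). Lamtor1 anchors the Ragulator complex to the lysosome. It was at 1119, 831 and 846 normalized counts in the scurfy libraries, by replicate number, against 1678, 1156 and 1537 in those of wild type, so the highest scurfy library lay just below the lowest wild-type library (log2 fold change -0.64, SE 0.15, adjusted p = 0.0306). The call ended without scurfy library 2 or 3 or wild-type library 1 or 3, with adjusted p up to 0.110. Other Ragulator genes did not pass, with Lamtor2 at 0.31, Lamtor3 at -0.22, Lamtor4 at 0.08 and Lamtor5 at 0.24.

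**Figure D5:**
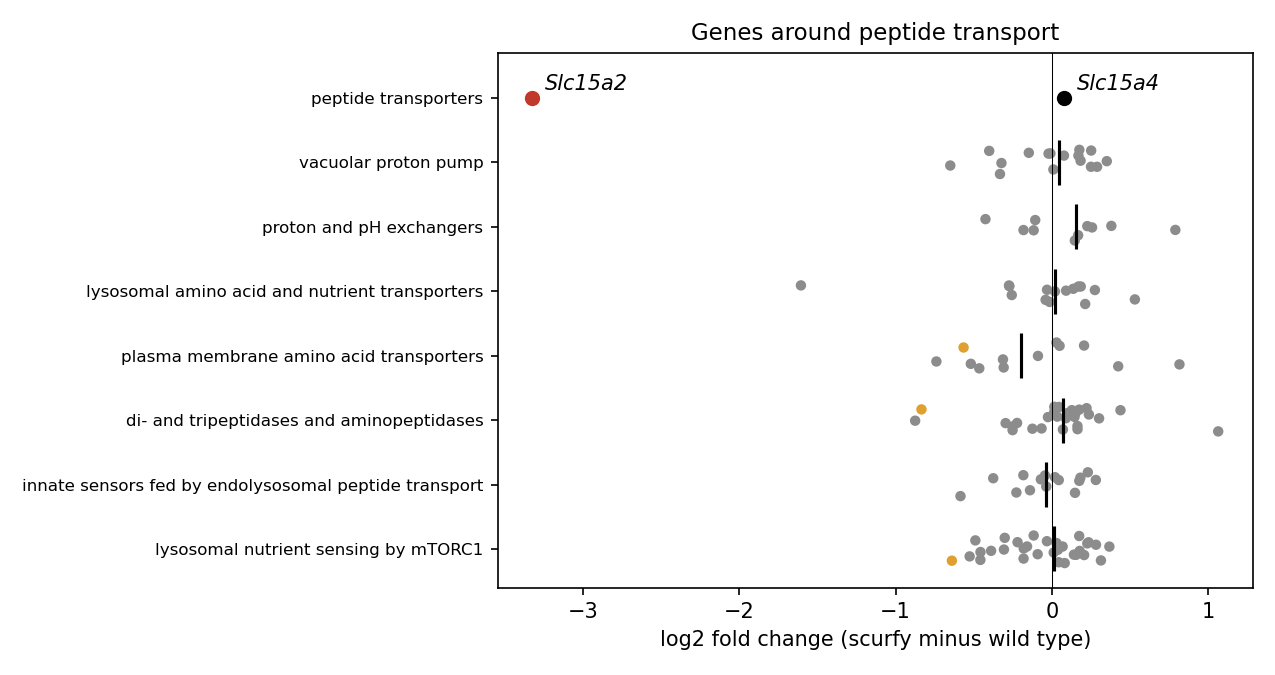
Log2 fold change (scurfy minus wild type) of each gene with a row in 7 lists around peptide transport; orange points passed an adjusted p of 0.05 in limma and black lines are medians. All list members lie between -1.61 and 1.07, and Slc15a2, in the top row, at -3.33.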

How the data were processed

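RNA was sequenced from purified CD8 T cells in 12 samples of 4 groups. Titles gave the groups. A second deposited table is identical, names the same 6 unstimulated libraries and was not used. Per the labels' protocols, RNA was primed with oligo-dT and amplified by in vitro transcription. Per the submitters' processing notes, Trim Galore 0.4.4, STAR 2.6, featureCounts, edgeR, DESeq2 and build NCBIM37 were used, without roles. The deposited gene values are a signal, namely reads scaled by a factor for each library, as the values themselves show. In each library 100% of values came out as whole reads, with a tolerance of 0.01 read. From this came the depth, and 3 reads correspond to 1.45 to 3.99 normalized counts. In wild-type library 2 the smallest value is 2 reads, so the read was taken from the spacing of the values. The authors' own log2 fold change, its error, a test score and p-values stand in the same deposited table.

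The fit over all genes used limma (version 3.58.1, R version 4.3.3) and log2(value + 1), with trended variance, robust moderation and Benjamini-Hochberg adjustment at 0.05. Alternatives were edgeR 4.0.16 quasi-likelihood, DESeq2 1.42.0 and voom on recovered reads, other pseudocounts, scalings and filters, a replicate block, removal of a length trend, and leaving out each library. The fit was tested on simulated data. The genes, lists and tests were chosen with earlier results of these data known. Named were the transporters, Foxp3, the 5 nearest patterns, rank neighbours, and from each list up to 4 members past the threshold or the one with the smallest p. The chromosomal neighbours, Mtus2 and the further list genes given with values were chosen after their values were seen. Lengths came from GENCODE M21 (11571 of the gene IDs matched). Positions on GRCm38 are given for promoters only, because the submitters' build differs. Replicate numbers were checked as pairs and did not pair the samples.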

Additional observations from a re-analysis of the deposited data

How the results depend on the processing

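The log2 fold changes of Slc15a2 and Slc15a4 moved by less than the replicate SD pooled over both groups under all 16 alternatives. The scurfy libraries set most of that spread, with log2 SDs of 0.81 for Slc15a2 and 0.30 for Slc15a4 against 0.07 and 0.08 in wild type, and the largest moves exceeded the wild-type SDs. Of the 16 alternatives, the replicate block and the filter on mean level leave each gene's group means as they are. They could not move the fold changes of the pair. Slc15a3 gave no value because it has no row. The count of called genes was 518, or 4.47% of 11581. It was 935 on library size alone, where 18.1% of calls were higher in scurfy against 47.5% and the median of all genes was -0.13, 891 in DESeq2 and 304 with the length trend removed. With 1 library left out it ran from 113 without wild-type library 3 to 403 without scurfy library 1. Of 154 distinct genes of all lists, the transporters left out, 3 rose and 5 fell. These were 1 and 12 on library size alone, 5 and 9 in DESeq2 and 1 and 3 with the length trend removed. With 1 library left out they were 1 to 2 higher and 0 to 6 lower. Same-numbered libraries correlated at -0.03, -0.07 and -0.15 in their deviations, so the numbers were not taken as pairs. With a replicate block 372 genes passed, and 2 of the lists' genes rose and 3 fell. Slc15a2 was at -3.33, a value that the block cannot change in this balanced design. For the 14 named list genes, 137 values under other settings, left-out libraries excepted, held no change of direction in a called gene, 9 lost calls and 9 gained calls. With 1 library left out, 29 of 84 values lost the call and 1 gained it. Depth limits Slc15a2 in scurfy, at 24 to 70 reads.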
